A study of Mus musculus with 15 samples.

Results

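The genes described here are 9 genes of blood vessels, namely Pecam1, Cdh5, Kdr, Flt1, Tek, Tie1, Eng, Vwf and Vegfa. All probe sets that the platform annotation assigns to one of these symbols were taken, which gave 14 of the 22626 probe sets tested and 9 of the 12393 genes that have a probe set with 1 symbol. Expression was measured in the gastrocnemius, a calf muscle rich in fast fibers, of 15 male C57BL/6NHsd mice, with 1 MOE430A oligonucleotide array per mouse. There were 5 old CR mice (25 months of age, on lifelong caloric restriction), 5 old mice (25 months, normal diet) and 5 young mice (5 months, normal diet). All mice were housed individually, the normal diet was itself held below free feeding, and the CR diet was enriched in protein, vitamins and minerals to match their intake on the normal diet. Values are array intensities, each array having been scaled to the same trimmed mean, and differences are on the log2 scale. A probe set was called at an adjusted p under 0.05 in a limma fit of the 3 groups, with Benjamini-Hochberg adjustment over all 22626 probe sets.

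Endothelial cells line the blood vessels, and in skeletal muscle they form the capillaries that run along each fiber. They hold together through junction proteins such as VE-cadherin (Cdh5) and CD31 (Pecam1), and they read the growth factor VEGF-A (Vegfa) and the angiopoietins through receptor tyrosine kinases found largely on the endothelium. Muscle fibers secrete VEGF-A, and mice that lack it in their fibers have fewer muscle capillaries. In RNA of whole muscle, fewer endothelial cells and less RNA per endothelial cell cannot be told apart.

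The tissue label was checked against 8 skeletal muscle fiber markers, among them Ckm, Acta1 and Myh1. The summed intensity of these markers was 175351 to 247775 in old CR mice, 150523 to 199152 in old mice and 183661 to 222896 in young mice. Of the 14 probe sets of the vessel genes, 12 lay in the brighter 50% of the table by mean intensity. The other 2, of Tie1 and the third of Flt1, did not, and whether they rose above background could not be read from the intensities. Arrays also differed in the evenness of the RNA along the transcript. The log2 difference between the 3' and 5' control probe sets of Gapdh averaged -0.21 ± 0.12 in old CR mice, 0.25 ± 0.10 in old mice and -0.04 ± 0.19 in young mice (SD, n = 5 each). The exact permutation test (two-sided) gave p = 0.00794 for old CR against old mice, the smallest p that 5 against 5 allow, and p = 0.0397 for old against young mice, with adjusted p of 0.0159 and 0.0595 over 6 tests. For Actb this difference averaged -0.38 ± 0.09 in old CR mice, 0.01 ± 0.11 in old mice and -0.32 ± 0.09 in young mice, and the same exact permutation test gave p = 0.00794 (adjusted p = 0.0159) both for old CR against old and for old against young mice, without overlap. By Actb, RNA evenness thus separated the old mice from both other groups. Within the young group, replicate 3 had a Gapdh value of 0.28, inside the range of the old mice, whereas the other young mice lay between -0.20 and -0.05. With this difference, averaged over Gapdh and Actb, as a covariate in the limma fit, 14 of the 42 differences of the vessel probe sets changed sign, none of them called in either fit. Of all 22626 probe sets, the covariate fit called 0 for old CR minus old, against 1102 without the covariate. It called 0 for old minus young, against 60, and 8 for old CR minus young, against 20.

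Among the vessel genes, only Vwf passed the test in any comparison of the limma fit, and it was lower in old CR mice than in old mice. None of the 14 probe sets was called between old and young mice, against 0.265% of all probe sets, and 3 (Vwf, Pecam1 and Tek) had an unadjusted p under 0.05, against 15.5% of all. Between old CR and old mice, 1 of 14 was called, against 4.87% of all probe sets, or 2.17% when only calls in the lower direction are counted. In that comparison 2 of 14, Vwf and Pecam1, had an unadjusted p under 0.05, against 21.9% of all. Between old CR and young mice none was called, against 0.0884% of all probe sets. In that comparison 1 of 14, the dimmer probe set of Eng, had an unadjusted p under 0.05. The share of all probe sets with such a p was not computed there, so this count has no base. The median difference of the 14 probe sets was 0.08 for old CR minus old and 0.06 for all probe sets. For old minus young it was -0.02, with -0.06 for all, and for old CR minus young it was -0.02, with -0.01 for all. The group means did not move one way, since 8 of 14 were higher in old CR than in old mice and 7 of 14 were higher in old than in young mice. The old mice enter both the old CR against old and the old against young comparison, so a high or low value in them moves both.

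Vwf encodes von Willebrand factor, the adhesive protein that endothelial cells store for release after injury and that binds platelets and coagulation factor VIII. The gene lies at chr6:125552948-125686679 (GRCm38.p6) and was measured by 1 probe set. Its intensity was 315, 285, 260.1, 306 and 229.9 in old CR mice. It was 410.5, 669, 432, 557 and 839 in old mice, and 249.9, 403, 418, 287 and 314 in young mice. Every old CR mouse lay below every old mouse, whereas the old and the young mice overlapped, with 418 in young replicate 3 above 410.5 in old replicate 1. The means were 279 ± 34.9 in old CR mice, 582 ± 178 in old mice and 334 ± 73.2 in young mice (SD, n = 5 each). Vwf fell by 1.02 on the log2 scale in old CR relative to old mice (SE 0.21, 95% interval -1.46 to -0.57, adjusted p = 0.018). Old minus young was 0.77 (SE 0.21, 95% interval 0.33 to 1.22, unadjusted p = 0.00227, adjusted p = 0.106), which missed the threshold. Old CR minus young was -0.24 (95% interval -0.69 to 0.20, adjusted p = 0.7). The call between old CR and old mice was present each of the 15 times that 1 mouse was left out, with differences of -1.13 to -0.87. Without young replicate 3, old minus young became 0.86 with an adjusted p of 0.039. That fit called 1067 of all 22626 probe sets for old minus young, against 60 with all mice. With the covariate, old CR minus old was -0.83 (adjusted p = 0.81) and old minus young was 0.64 (adjusted p = 0.81). That fit called 0 of all 22626 probe sets in either comparison.

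Pecam1 encodes CD31, a homophilic adhesion molecule of endothelial junctions that platelets and leukocytes also carry. The gene lies at chr11:106654213-106715281 and was also measured by 1 probe set. Its intensity was 856, 756, 728, 847 and 659.5 in old CR mice. In old mice it was 486, 354, 386, 416 and 609.7, and in young mice it was 743, 571, 403, 896 and 903. Here too the old CR mice stood apart from the old mice, but on the other side, with the lowest old CR value above the highest old value. Of all probe sets, 8.89% had groups that did not overlap between old CR and old mice, and 2 of the 14 were among them, Vwf and Pecam1. Between old and young mice no probe set of the 9 genes was free of overlap, against 3.61% of all. Mean Pecam1 intensity was 769 ± 82.8 in old CR mice, 450.3 ± 102 in old mice and 703 ± 216 in young mice (SD, n = 5 each). Old CR minus old was 0.79 (SE 0.22, 95% interval 0.32 to 1.26, unadjusted p = 0.00275), and its adjusted p of 0.0529 missed the threshold. Old minus young was -0.61 (SE 0.22, 95% interval -1.08 to -0.14, unadjusted p = 0.0149, adjusted p = 0.201). Old CR minus young was 0.19 (adjusted p = 0.792). Without young replicate 3, whose 403 was the lowest young value, old CR minus old had an adjusted p of 0.0169, and old minus young became -0.79 with an adjusted p of 0.0275. Calls over all probe sets rose as well without this mouse. They went from 1102 to 1657 for old CR minus old and from 60 to 1067 for old minus young. Without old replicate 5, old CR minus old was 0.91 with an adjusted p of 0.0468.

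**Figure D1:**
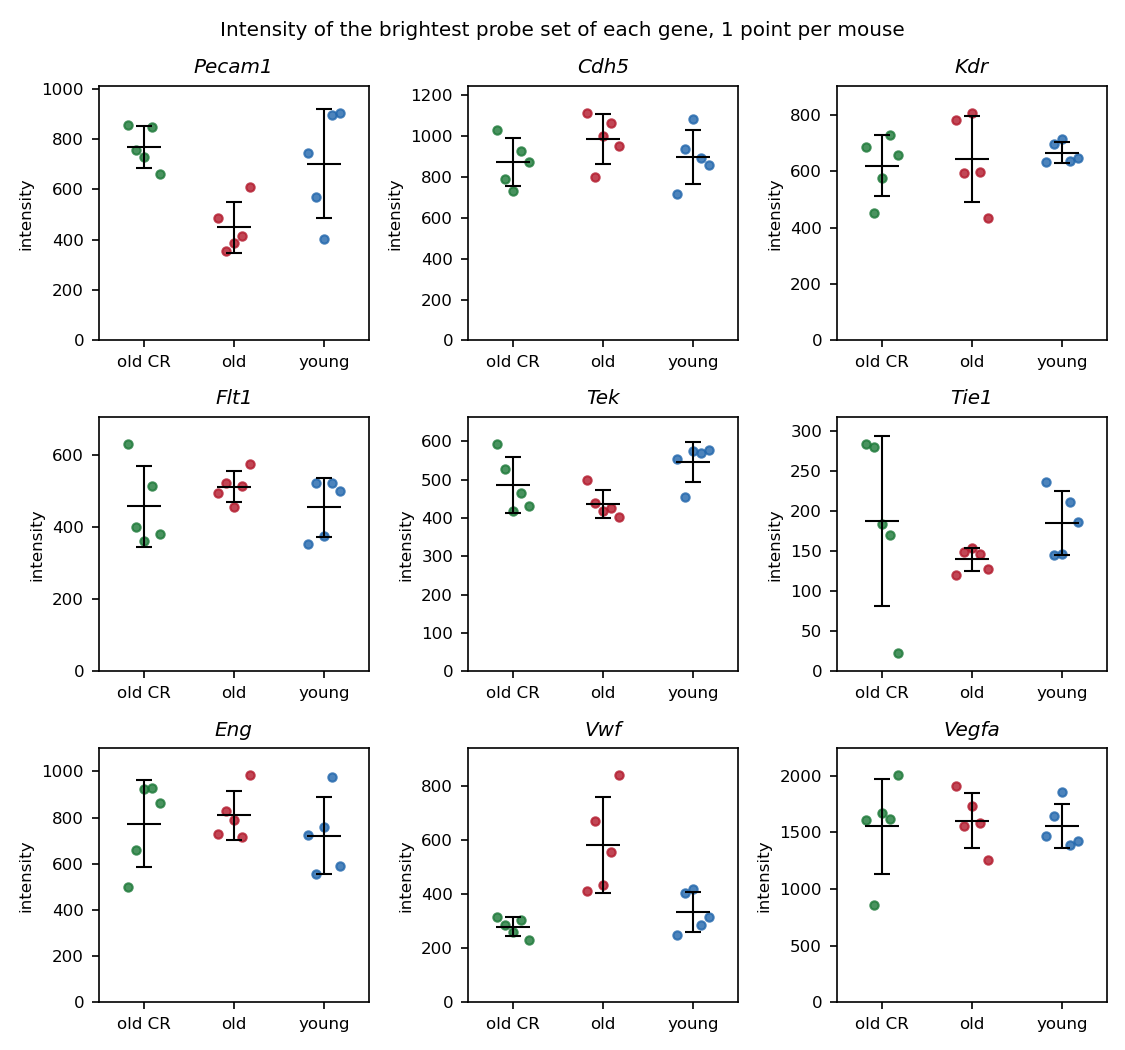
Intensity of the brightest probe set of each of the 9 vessel genes, 1 panel per gene, in old CR, old and young mice. Each point is 1 mouse and each bar the group mean with the SD of 5 mice. Vwf and Pecam1 are the panels in which the old CR and the old mice do not overlap, with Vwf lower and Pecam1 higher in old CR mice.

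Vwf and Pecam1 thus took opposite directions, and over the 15 arrays their log2 levels had a Pearson correlation of -0.66. After the group means were taken out it was -0.13, so most of that relation lay between the groups. Both levels also moved with the 3' minus 5' difference of Gapdh. The correlation with that difference was 0.75 for Vwf and -0.76 for Pecam1 over 15 arrays, or 0.23 and -0.41 within groups. These are descriptions over arrays that share their group and RNA quality, with no p given. With the covariate, Pecam1 was at 0.12 for old CR minus old (adjusted p = 0.977), against 0.79 without it, and at -0.11 for old minus young (adjusted p = 0.974), against -0.61 without it. Since the Actb difference sets the old mice apart from both the old CR and the young mice, its part in the Vwf and Pecam1 results and that of diet or age cannot be told apart. Of the other vessel probe sets, the dimmer one of Vegfa had a correlation of -0.67 with the Gapdh difference (-0.60 within groups, the largest in size of the 14). The brighter and the dimmer one of Cdh5 had 0.56 and -0.59 (0.45 and -0.33 within groups).

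**Figure D2:**
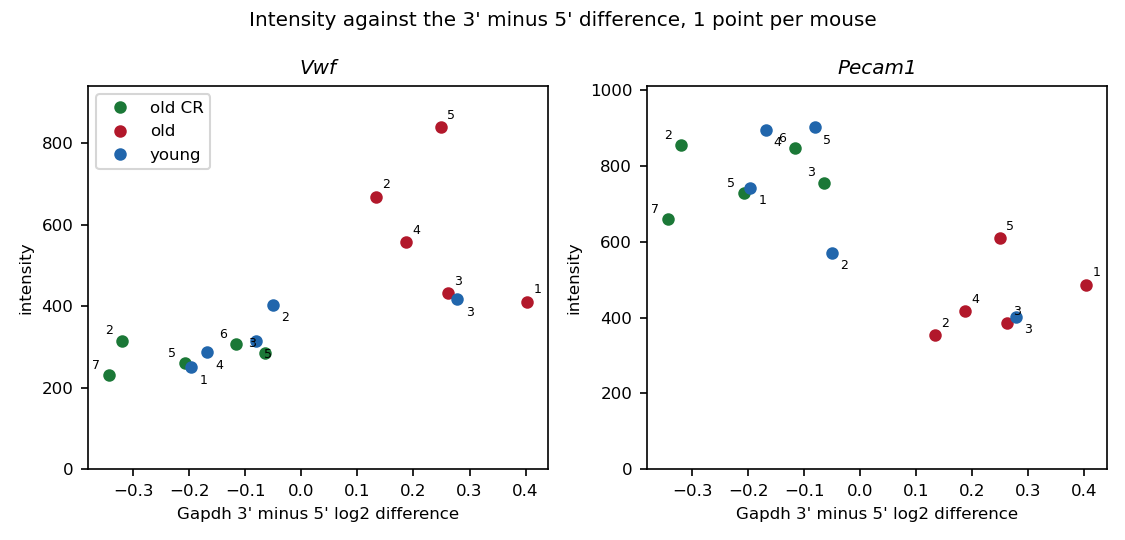
Intensity of Vwf (left) and Pecam1 (right) against the Gapdh 3' minus 5' log2 difference, 1 point per mouse with its replicate number, in old CR, old and young mice. The old mice lie at 0.13 to 0.40 on the horizontal axis and the old CR mice at -0.34 to -0.07, and young replicate 3, at 0.28, lies among the old mice.

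Cells that share these genes were examined through marker lists. Platelets contain Vwf and Pecam1 protein, and the summed intensity of 5 platelet markers (Itga2b, Pf4, Gp9, Ppbp and Gp5) was 1865 to 2179 in old CR mice, 1886 to 2419 in old mice and 1742 to 3588 in young mice. No platelet marker was called in any comparison. Leukocytes carry Pecam1, and 8 leukocyte markers summed to 3908 to 5697 in old CR mice, 5597 to 8206 in old mice and 3841 to 8758 in young mice. None of the 8 was called between old CR and old mice, with 3 means higher, 5 lower and a median difference of -0.30, against 0.79 for Pecam1. Csf1r, the receptor that macrophages need for growth, had 1563 ± 167 in old CR mice and 2355 ± 400.4 in old mice (adjusted p = 0.0589). The lowest of the 8 differences was -0.75 for Ptprc (adjusted p = 0.103), and Lyz2 gave -0.72 (adjusted p = 0.242). The highest was 0.29 for the macrophage marker Cd68 (adjusted p = 0.44). The share of these cells in the Vwf and Pecam1 values was not tested.

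Cdh5 encodes VE-cadherin, the adhesion molecule of the adherens junction that is nearly restricted to endothelium. It lies at chr8:104101613-104144504. The brighter of its 2 probe sets gave 1030.1, 791, 729.6, 929 and 875 in old CR mice, 1111, 799, 1000.3, 1065 and 949 in old mice, and 715, 934, 1081, 893 and 857 in young mice. The 3 groups overlapped throughout. Means were 871 ± 117 in old CR mice, 985 ± 121 in old mice and 896 ± 132 in young mice (SD, n = 5 each). The difference of old CR minus old was -0.18 (95% interval -0.48 to 0.13, adjusted p = 0.499) and old minus young was 0.14 (adjusted p = 0.677). The dimmer probe set pointed the other way, with 304, 456, 312, 446 and 382 in old CR mice, 206, 154, 182, 553 and 220.5 in old mice, and 355, 359, 183, 463 and 360.0 in young mice. Of the old mice, 4 lay below all old CR mice and replicate 4 lay above them. Old CR minus old was 0.68 for this probe set (95% interval -0.01 to 1.37, adjusted p = 0.233), and without old replicate 4 it was 0.99 with an adjusted p of 0.0465. With the 3' minus 5' covariate it was -0.03, and the brighter probe set was at 0.29. The probe sets had a correlation of -0.20 over the 15 arrays, so the level of Cdh5 in these muscles depends on which one is read.

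The VEGF and angiopoietin receptors come next, with DNA from 4 of their promoters. Endothelial genes are classic targets of ETS transcription factors, whose core motif is GGAA, or TTCC on the other strand. Stretches of 100 bases are shown 5' to 3' in the direction of each gene, each just before the start that the RefSeq promoter table (GRCm38.p6) uses, since the receptor promoters differ in this motif, and the capitals mark each GGAA or TTCC.
Kdr: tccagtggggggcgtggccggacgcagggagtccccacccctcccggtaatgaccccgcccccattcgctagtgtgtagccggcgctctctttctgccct
Flt1: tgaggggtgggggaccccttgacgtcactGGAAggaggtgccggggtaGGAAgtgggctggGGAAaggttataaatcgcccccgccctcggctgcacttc
Tek: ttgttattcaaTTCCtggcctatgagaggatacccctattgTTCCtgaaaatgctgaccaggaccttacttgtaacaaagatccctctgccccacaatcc
Tie1: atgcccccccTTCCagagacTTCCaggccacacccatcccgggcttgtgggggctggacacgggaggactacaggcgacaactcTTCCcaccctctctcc
The stretches are chr5:75978456-75978555 (minus strand) for Kdr, chr5:147726012-147726111 (minus strand) for Flt1, chr4:94739189-94739288 (plus strand) for Tek and chr4:118489850-118489949 (minus strand) for Tie1. The Tie1 stretch ends at the outer end of the gene, whereas those of Kdr, Flt1 and Tek lie inside the gene's full extent as given here, so the starts used for them are inner ones. Flt1 and Tie1 each held 3 matches, Tek held 2 and Kdr held 0. Among 32851 promoter stretches of this length, 11.9% held at least 3 and 31.8% at least 2, and 66.8% held at least 1, with a median of 1. A match is a run of letters and not a shown binding site. The promoter table held 6 of the 9 genes.

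Kdr encodes VEGFR2, the main signaling receptor of VEGF-A on endothelial cells (chr5:75932827-75979072). Its probe set gave 686, 452, 576, 728 and 659 in old CR mice, 780.3, 594, 806, 599 and 434 in old mice, and 634, 696, 716, 638 and 647 in young mice. The young mice all lay within the range of the old mice, and the spread was narrowest among them. Means were 620 ± 109 in old CR mice, 643 ± 153 in old mice and 666 ± 37.3 in young mice (SD, n = 5 each). The difference of old CR minus old was -0.04 (95% interval -0.41 to 0.34, adjusted p = 0.931) and old minus young was -0.09 (95% interval -0.46 to 0.29, adjusted p = 0.86). A change of the size seen for Vwf lies outside both intervals.

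Flt1 encodes VEGFR1, which binds VEGF-A tightly, signals weakly and is also made as a soluble form that traps the ligand (chr5:147561604-147726438). The brightest of its 3 probe sets gave 631, 403, 363, 516 and 381 in old CR mice, 496, 522, 457, 516 and 577 in old mice, and 355, 522, 376, 522 and 502 in young mice. The groups overlapped, and old CR minus old was -0.19 (adjusted p = 0.558), old minus young 0.19 (adjusted p = 0.635) and old CR minus young 0.00 (95% interval -0.37 to 0.37). A second probe set spread widely, with 118 to 721 in old CR mice, 80.8 to 636 in old mice and 286 to 541 in young mice. Old minus young was -0.68 for it (adjusted p = 0.579) and changed sign, to 0.52, with the 3' minus 5' covariate, as did old CR minus old, at 0.25 without and -1.39 with it. The third lay between 46.0 and 211 on all 15 arrays and was called in no comparison. The correlations among the 3 probe sets of Flt1 ran between -0.11 and 0.18 over the 15 arrays.

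Tek encodes TIE2, the receptor of the angiopoietins, which keeps quiescent vessels stable (chr4:94739086-94874976). Its probe set gave 592, 528, 417, 465 and 432 in old CR mice, 499, 439, 418, 427 and 403 in old mice, and 553, 455, 573, 569 and 577 in young mice. In young mice 4 of 5 values lay above every old value, and replicate 2, at 455, lay among the old mice. Means were 487 ± 72.9 in old CR mice, 437 ± 36.8 in old mice and 546 ± 51.4 in young mice (SD, n = 5 each). Old minus young was -0.32 (SE 0.13, 95% interval -0.59 to -0.05, unadjusted p = 0.024, adjusted p = 0.24), which missed the threshold. Old CR minus old was 0.15 (adjusted p = 0.535) and old CR minus young was -0.17 (adjusted p = 0.638).

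Tie1 encodes the partner of TIE2, a receptor that binds no angiopoietin strongly by itself (chr4:118471191-118489849). Its probe set gave 284, 279.8, 184, 169.9 and 22.9 in old CR mice, 121, 149, 155, 147 and 128 in old mice, and 236, 146, 147, 212 and 186 in young mice. In old CR mice 4 of 5 values were above every old value and replicate 7 was far below all others. The difference of old CR minus old was 0.02 with a wide interval (-1.11 to 1.15, adjusted p = 0.988), and leaving out 1 mouse moved it between -0.23 and 0.68. Old minus young was -0.38 (adjusted p = 0.771). The data on Tie1 therefore fix neither a size nor a direction.

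Eng encodes endoglin, the co-receptor for TGF-beta family ligands, above all BMP9, on endothelial cells (chr2:32646595-32682669). The brighter of its 2 probe sets gave 499, 658, 926, 928 and 862 in old CR mice, 731, 830.4, 789, 715 and 984 in old mice, and 725, 555, 758, 977 and 592 in young mice. Old CR minus old was -0.09 (adjusted p = 0.824) and old minus young was 0.19 (adjusted p = 0.693), with overlap of all groups. The dimmer one gave 239, 243, 390.4, 418 and 421 in old CR mice, 281, 321, 314, 236 and 147 in old mice, and 178, 299, 156, 170.3 and 132 in young mice. Its means were 342 ± 93.4 in old CR mice, 259.7 ± 71.5 in old mice and 187 ± 64.7 in young mice (SD, n = 5 each). Old CR minus young was 0.88 (95% interval 0.30 to 1.46, unadjusted p = 0.00568, adjusted p = 0.211), which missed the threshold. The probe sets of Eng had a correlation of 0.17 over the 15 arrays.

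Vegfa encodes VEGF-A, the ligand of Kdr and Flt1 and the central growth signal of vessels (chr17:46016993-46032377). The brighter of its 2 probe sets gave 1610.5, 862, 1673, 1621 and 2003 in old CR mice, 1904, 1555, 1728, 1578 and 1254 in old mice, and 1465, 1644, 1854, 1387 and 1427 in young mice. Apart from 862 in old CR replicate 3, values of the 3 groups covered much the same range. Means were 1554 ± 419 in old CR mice, 1604 ± 241 in old mice and 1555 ± 194 in young mice (SD, n = 5 each). The difference of old CR minus old was -0.08 (95% interval -0.52 to 0.35, adjusted p = 0.845) and old minus young was 0.04 (adjusted p = 0.951). The other probe set gave 662, 699.7, 734, 828 and 1298 in old CR mice, 452, 482, 365, 882 and 736 in old mice, and 954, 935, 349, 608 and 679 in young mice. Old CR minus old was 0.57 for it (95% interval -0.10 to 1.23, adjusted p = 0.306), against -0.79 with the 3' minus 5' covariate. It had a correlation of -0.11 with the brighter one. Of all probe sets of different genes among the 14, Kdr and the brighter Vegfa probe set had the highest correlation over the 15 arrays, 0.77, or 0.79 within groups. With the dimmer Vegfa probe set, Kdr had -0.31, or -0.32 within groups. These are descriptions over arrays that share their scaling.

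**Figure D3:**
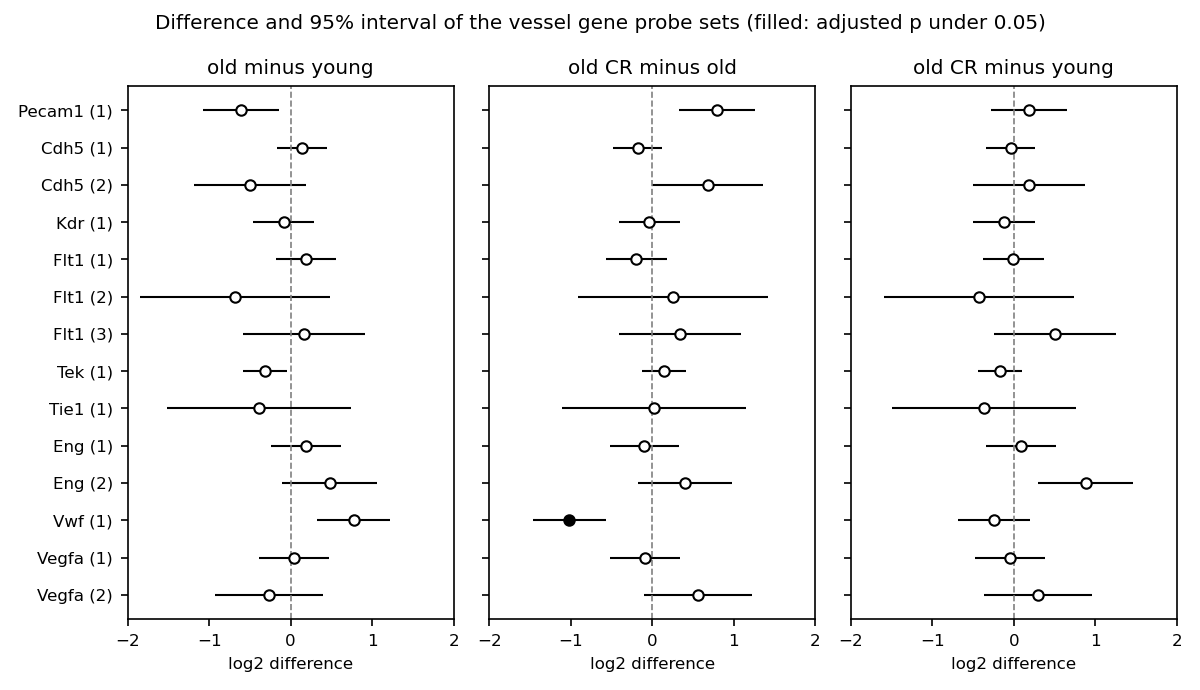
Log2 difference of each of the 14 probe sets in 1 panel each for old minus young, old CR minus old and old CR minus young, with 95% intervals from the limma fit (5 mice per group). Numbers after a gene order its probe sets by brightness. Filled points mark calls at an adjusted p under 0.05, and Vwf in old CR minus old, at -1.02, is the only one.

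Other genes of the endothelium and of vessel signaling were read from 16 lists, each gene by its brightest probe set, which gave 127 measured genes of 139. Between old and young mice none of the 127 was called, and 28 had an unadjusted p under 0.05. Between old CR and old mice 44 had such a p, and between old CR and young mice 25. Of all probe sets, 15.5% and 21.9% had one in the first 2 of these comparisons. Those shares include dim and further probe sets, so they are not a like base for genes read by their brightest probe set. Between old CR and old mice 10 were called, and between old CR and young mice 1. Over all 12393 genes read in the same way, 2.15% were called higher and 2.67% lower in old CR than in old mice. Of the same 12393 genes, 4 were called higher and 6 lower in old CR than in young mice. Between old and young mice 12 were called higher and 11 lower. With the 3' minus 5' covariate none of the 10 was called, and 3 of them (Fli1, Egln3 and Myh1) had an unadjusted p under 0.05. In that fit 0 of all 22626 probe sets were called for old CR minus old, against 1102 without the covariate. The count of 10 also moved with single mice, being 17 without young replicate 3, 3 to 6 without any 1 of the 5 old mice, 5 without old CR replicate 5 and 4 without old CR replicate 7.

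Of 21 further endothelial genes, 3 were called lower and 1 higher in old CR than in old mice, and the median difference was -0.12, against 0.02 over all genes. Cd93, a lectin-like receptor of endothelial adhesion, had 303 ± 49.3 in old CR mice and 638 ± 92.1 in old mice (log2 difference -1.08, SE 0.19, adjusted p = 0.0118), although a dimmer probe set of it gave -0.13. Ptprb, the phosphatase VE-PTP that acts on TIE2 and VE-cadherin, had 234 ± 65.7 in old CR mice and 432 ± 69.2 in old mice (-0.92, adjusted p = 0.033). Plvap, which builds the diaphragms of caveolae and fenestrae, gave -0.80 (adjusted p = 0.0449). Fli1, an ETS factor of endothelium and blood cells, was the gene called higher, with 175 ± 46.1 in old CR mice and 49.1 ± 20.5 in old mice (1.91, adjusted p = 0.0143), on a probe set outside the brighter 50%, and its other probe set was not called. Aplnr, the apelin receptor, had 308 ± 127 in old CR mice and 990.1 ± 287 in young mice, with an adjusted p of 0.0593. With the 3' minus 5' covariate, old CR minus old was -0.48 for Cd93, -0.51 for Ptprb, -0.93 for Plvap and 1.88 for Fli1, with adjusted p of 0.742 to 0.894. The summed intensity of the 21 genes was 9264 to 11838 in old CR mice, 11224 to 12994 in old mice and 11959 to 13360 in young mice.

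Around the receptors, none of 7 other VEGF ligands and receptors was called, though all 7 means were lower in old CR than in old mice, with a median of -0.28. The nearest was Nrp1, the VEGF co-receptor neuropilin-1, at 1029 ± 262 in old CR mice and 1610.0 ± 149 in old mice (adjusted p = 0.0512). Of 5 angiopoietin genes 1 was called, Angpt4, a ligand of TIE2, with 91.0 ± 25.2 in old CR mice and 27.7 ± 11.4 in old mice (1.78, adjusted p = 0.0412), both dim. Of 11 genes of endoglin signaling 1 was called, Smad1, a transducer of BMP signals, at 422 ± 49.5 in old CR mice and 663 ± 76.5 in old mice (-0.65, adjusted p = 0.0353), and its dimmer probe set gave 0.07. Of 8 Notch genes Hey1, a Notch target repressor, was called lower (-0.95, adjusted p = 0.0343), also outside the brighter 50%. Of 8 inhibitors of angiogenesis Timp3, which keeps VEGF-A from Kdr, was called lower by its brightest probe set (-0.86, adjusted p = 0.0255), but 2 of its other probe sets were called higher (0.94 and 1.52), so its direction was not settled. With the covariate, Smad1 was at -0.29 and the brightest Timp3 probe set at -0.05, while Angpt4 (1.78) and Hey1 (-1.07) lay near their values without it, and none of these was called. None of 7 genes of endothelial activation was called, and Selp, P-selectin, which is stored together with Vwf, had 95.8 ± 69.6 in old CR mice and 289 ± 226 in old mice (-1.63, adjusted p = 0.109). This Selp probe set and its other one lay outside the brighter 50%, and the other gave -0.87 (SE 0.87, adjusted p = 0.604).

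Upstream of Vegfa, the genes of hypoxia signaling and Vegfa control had the highest median of the 16 lists for old CR minus old. This list mixed HIF genes with the prolyl hydroxylases that mark HIF proteins for degradation, so its median gives no direction for Vegfa control. Of 10 genes that control Vegfa, 1 was called higher in old CR than in old mice, and the median was 0.48. Egln3, the prolyl hydroxylase PHD3 that marks HIF proteins for degradation and is itself induced by hypoxia, had 3093 ± 1021 in old CR mice, 1234 ± 226 in old mice and 988 ± 93.3 in young mice (SD, n = 5 each). It rose by 1.28 in old CR relative to old mice (SE 0.21, adjusted p = 0.00791) and by 1.59 relative to young mice (adjusted p = 0.0105), and its second probe set was called in both comparisons too. With the 3' minus 5' covariate these differences were 1.29 (adjusted p = 0.642) and 1.59 (adjusted p = 0.046). Epas1, which encodes HIF-2alpha, gave 0.88 (adjusted p = 0.0531) and its partner Arnt 0.97 (adjusted p = 0.0611) for old CR minus old. In the other direction, Egln1, the main prolyl hydroxylase of HIF, gave -0.44 (adjusted p = 0.084) and Hif1a gave -0.33 (adjusted p = 0.301), so that 8 of the 10 means were higher and 2 lower. None of 9 hypoxia target genes was called in this comparison, and their median was 0.17. Vegfa itself, as given above, was not called by either probe set.

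**Figure D4:**
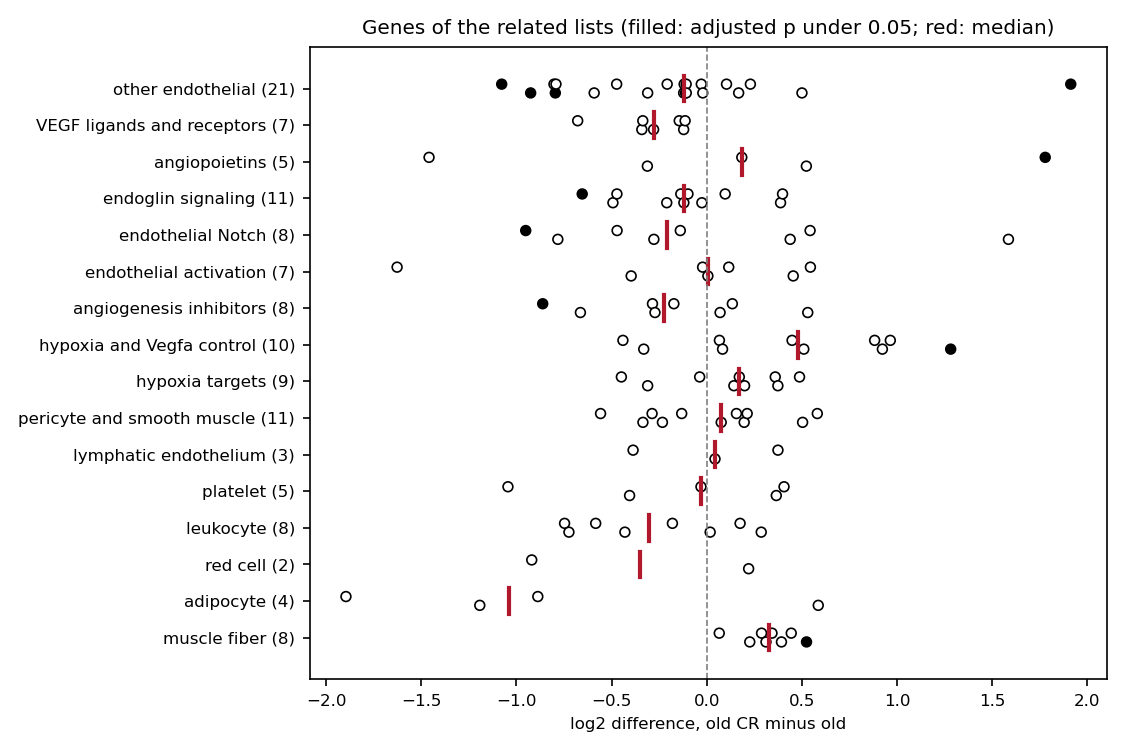
Log2 difference, old CR minus old, of the 127 measured list genes, 1 row per list and 1 point per gene, with the median of each list. Filled points mark the 10 called genes, among them Egln3 at 1.28 and Cd93 at -1.08.

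Markers of other cells in the muscle were read beside these values. None of 11 pericyte and smooth muscle genes, 3 lymphatic, 2 red cell or 4 adipocyte genes was called between old CR and old mice. The adipocyte median was -1.04, and the summed level of its genes was 1719 to 4284 in old CR mice, 3033 to 8512 in old mice and 2929 to 6081 in young mice. All 8 muscle fiber means were higher in old CR than in old mice, with a median of 0.33, and 1 of them was called, Myh1 (0.52, adjusted p = 0.0297; 0.74 with the covariate, adjusted p = 0.62). Pericyte and smooth muscle genes summed to 15289 to 16591 in old CR mice, 14256 to 17340 in old mice and 15339 to 17556 in young mice. The part of these shifts in the levels of the vessel genes was not tested.

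The probe sets most like the 9 genes as a whole were sought among 10372 others of the brighter 50%, by the Pearson correlation over 15 arrays with the mean scaled level of the brightest probe set of each gene. The highest were Cdk2, a cell cycle kinase, at 0.82, Gpn1, a small GTPase, at 0.79, Rcan2, an inhibitor of calcineurin, at 0.76, Eml3, a microtubule protein, at 0.74, and Tgm2, transglutaminase 2, at 0.74. Within groups these were 0.85, 0.85, 0.73, 0.85 and 0.76. The 5 were picked for their correlation, which is a description over arrays that share scaling and group.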

How the data were processed

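Biotin-labeled cRNA made from gastrocnemius RNA of 15 mice was hybridized to Affymetrix MOE430A arrays, 1 per mouse. The deposited table gives, for each array, an intensity of every probe set on a linear scale. The submitters' processing notes name MAS5 and RMA. Every array had a 2% trimmed mean of 500.0, so the deposited intensities were taken to be the authors' array-by-array scaled signals and not RMA values, which would be log2. Detection calls were not used here. The annotation gave 1 symbol to 20380 probe sets, several to 691 and none to 1555. After 64 control probe sets were left out, intensities were converted to log2 with no pseudocount, and old CR, old and young mice were fitted together in limma 3.58.1 (R 4.3.3), with adjustment over 22626 probe sets. The methods of the study used an empirical Bayes mixture model (EBarrays), which was replaced by limma. Signals of the 3' and 5' control probe sets for Gapdh and Actb were compared by exact permutation tests (SciPy 1.17.1). The scripts were tested on simulated data. The precision is limited by the number of arrays, 5 per group. Mice of a group are separate animals.

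The members and gene lists were chosen with earlier results of these data known. All probe sets of the 9 genes are described, with genes named from the 4 of each list with the smallest p and the 5 probe sets most like the members. Plvap, Cd68 and Hif1a were added after their values were seen. Gene positions are from RefSeq, GRCm38.p6. Alternatives were the brighter 50% of probe sets, median centering, quantile normalization, trend and robust variances, the replicate number as a block, the 3' minus 5' covariate, an adjusted p under 0.10, only the 2 groups compared, averaging the probe sets of each gene, and leaving out each mouse.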

Additional observations from a re-analysis of the deposited data

Results flagged for a closer look

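In each group of 5 mice, the gap of the highest or lowest log2 intensity to its neighbor was set against the range of the group, and a share above 0.71 was marked. Of 42 groups of the vessel probe sets, 6 were marked, where chance marks about 5%. In old CR mice, Tie1 was 22.9 in replicate 7, with the next lowest at 169.9. The brighter Vegfa probe set was 862 in old CR replicate 3, with the next lowest at 1610.5. The third Flt1 probe set was 109 in old CR replicate 2, with the next lowest at 142. In old mice, the dimmer Cdh5 probe set was 553 in replicate 4, with the next highest at 220.5. In young mice, the same Cdh5 probe set was 183 in replicate 3, with the next lowest at 355, and Tek was 455 in replicate 2, with the next lowest at 553. The mice marked were 6 different animals. Vwf and Pecam1 had no such value in any group.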

How the results depend on the processing

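Of 960 values of single vessel probe sets under other settings, 898 kept their direction and side of the threshold, 10 gained a call and 2 lost it, and 50 that were not called changed sign, the largest of them -0.68 for the second Flt1 probe set (old minus young). The called probe sets of the 9 genes numbered 0 for old minus young, 1 for old CR minus old and 0 for old CR minus young. For old minus young the number was 1 in the brighter 50% of probe sets (Vwf, adjusted p = 0.0347). That fit called 572 of all 11313 probe sets, against 60 of 22626 in the main fit. The number was 0 to 2 when 1 mouse was left out. The 2 came without young replicate 3, a fit that called 1067 of all probe sets for old minus young, against 60. For old CR minus old it was 2 in the brighter 50%, with trend and robust variances, with only these 2 groups in the fit and at an adjusted p under 0.10, the second being Pecam1 (adjusted p 0.0168 to 0.0529), and 1 to 2 when 1 mouse was left out. It was 0 with the 3' minus 5' covariate, as it was over all 22626 probe sets. Over the 15 fits that each left out 1 mouse, Pecam1 had adjusted p of 0.0169 to 0.119 for old CR minus old. Correlations of deviations between the 11 same-numbered pairs of mice ran from -0.28 to 0.09, with 0 over 0.1. These values cannot exclude that mice were paired or processed together by replicate number. With the replicate number as a block the number was 0 for old CR minus old, Vwf being at -1.15 (adjusted p = 0.162). The block fit called 4 of all 22626 probe sets for old CR minus old. The called list genes numbered 0 for old minus young, against 3 in the brighter 50%, 2 with trend and robust variances, 3 at an adjusted p under 0.10, 1 with the mean of all probe sets and 0 to 5 when 1 mouse was left out. They numbered 10 for old CR minus old, against 21, 19 and 22 under the first 3 of these settings, 0 with the block, 0 with the covariate and 3 to 17 when 1 mouse was left out. Over all probe sets tested, 1102 were called for old CR minus old, against 1778, 1666 and 2289 under the same 3 settings. That number was 4 with the block, 0 with the covariate and 462 to 1657 when 1 mouse was left out. For old minus young it was 60, against 572, 418 and 380 under the same 3 settings and 0 to 1067 when 1 mouse was left out. For old CR minus young 1 list gene was called, against 6, 5 and 2, 0 with the block, 0 with only these 2 groups and 1 to 2 when 1 mouse was left out. Over all probe sets that comparison had 20 calls, against 204, 151 and 99. It had 0 with the block, 6 with only these 2 groups and 7 to 34 when 1 mouse was left out. The causes were not tested. In the brighter 50% fewer probe sets were tested, and the variances were fitted to these alone. The part of each in the counts was not tested. Dim probe sets and 5 arrays per group limit what could be called.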
